A study of Mus musculus with 9 samples.

Results

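The genes described here encode enzymes that write and erase marks on histones and DNA, other than LSD1 itself and the deacetylases Hdac1 and Hdac2 of its complex. They were chosen by symbol, and all 43 of 43 listed genes were found among the 24391 genes of the deposited count tables. They comprise 13 histone demethylases, 4 subunits of Polycomb repressive complex 2, 10 other lysine methyltransferases, 10 deacetylases and 6 enzymes of DNA methylation and demethylation. Lysine methylation of histone tails is placed by methyltransferases and removed by demethylases, of which LSD1 and its paralog Kdm1b use a flavin cofactor and the Jumonji enzymes use iron and 2-oxoglutarate. Deacetylases remove acetyl groups from lysines, and DNA methylation is copied at replication by Dnmt1, set anew by Dnmt3a and Dnmt3b and oxidised by the Tet enzymes. In cytotoxic CD8+ T cells several of these enzymes, among them Ezh2, Suv39h1, Dnmt3a and Tet2, are known to shape the choice between effector and memory fates.

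RNA was sequenced from mouse CD8+ T cells activated for 72 h in medium with 100 U/mL interleukin 2. The LSD1i group, 4 libraries, came from cells activated with an inhibitor of LSD1, a histone demethylase encoded by Kdm1a. The NT group, 5 libraries, came from cells activated without it. The labels used here give neither the name nor the dose of the inhibitor, nor the strain, age or number of mice, and the p-values below therefore reflect only how much these libraries vary, a variation that could be technical.

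The deposited raw table and the deposited batch-corrected table disagree on the names of 4 libraries. Matched by the genes with a count of 0, the raw libraries named NT 1, NT 2, LSD1i 1 and LSD1i 2 are those that the batch-corrected table names LSD1i 1, LSD1i 2, NT 1 and NT 2, and the other 5 libraries are named alike. Which names are right is not settled by the labels. Values and directions below follow the names of the batch-corrected table unless the raw names are stated, and the change within the 5 libraries named alike (replicates 3 to 5) is given beside the results, as is that within replicates 1 and 2. Gfi1, a repressor that recruits LSD1, had 322 ± 30.4 CPM in LSD1i and 134 ± 12.5 CPM in NT (mean ± SD, n = 4 and n = 5, CPM being counts scaled to the library size), and its log2 fold change was 1.29 within replicates 3 to 5 and 1.24 within replicates 1 and 2 under these names. Under the raw names its log2 fold change was 0.09 and did not pass (edgeR adjusted p = 0.999). Kdm1a was at 119.6 ± 5.77 CPM in LSD1i and 126 ± 13.1 CPM in NT (log2 fold change −0.07 ± 0.09, SE, and −0.05 within replicates 3 to 5 and −0.09 within replicates 1 and 2), and an inhibitor of the protein need not change this level. Raw library totals ran from 15163983 to 29245278 reads. The CD8 T cell markers Cd3d, Cd3e, Cd3g, Cd8a and Cd8b1 summed to 1464 to 1521 CPM in LSD1i and 1166 to 1370.0 CPM in NT, which did not overlap, and 1 of the 5, Cd8a, was called higher in LSD1i (log2 fold change 0.38 ± 0.08, adjusted p = 0.0266). No marker of myeloid or NK cells had more than 10 counts in any library. Of the B cell markers, Ms4a1, Cd79a and Pax5 had at most 4 batch-corrected counts and Cd79b was called lower in LSD1i, with 8.65 ± 0.579 CPM in LSD1i and 11.6 ± 0.621 CPM in NT. Of the 3 CD4 T cell markers, Cd4 and Foxp3 had at most 5 counts, whereas Zbtb7b was at 41.8 ± 3.94 CPM in LSD1i and 38.1 ± 7.26 CPM in NT and did not pass (adjusted p = 0.754). The part of these markers in the values below was not tested. The 5 proliferation markers summed to 2523 to 3106 CPM in LSD1i and 2529 to 2925 CPM in NT, and 0 of the 5 passed the test.

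All 43 genes were expressed above the low-count filter, with 55 to 17069 raw reads per gene and library. None passed the test between LSD1i and NT. In edgeR's quasi-likelihood test on the batch-corrected counts, 0 of the 43 genes rose and 0 fell at an adjusted p under 0.05, where 3.31% of all 11981 tested genes passed. At an unadjusted p under 0.05 there was 1 of the 43, the deacetylase gene Hdac6, against 14.6% of all tested genes. Of the 43 log2 fold changes 20 were above 0 and 23 below, with a median of −0.01, beside a median of −0.02 over all tested genes. Their median size regardless of sign was 0.11, and that of all tested genes 0.12. DESeq2 called 1 of the 43, Hdac6.

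The interval of each difference gives the sizes of change that the spread between libraries allows. The 95% interval of the log2 fold change lay inside a 2-fold change in either direction for 40 of the 43 genes, and inside a 1.5-fold change for 32. The shares of all tested genes that did so were 89.9% and 70.4%. The genes whose interval reached past 2-fold were Kdm6b, Setd1b and Tet2. For 40 of the 43 genes the difference between the groups was smaller than the larger of the 2 standard deviations within the groups on the log2 scale. The share of all tested genes is not given for this comparison, so the count cannot be read as particular to the 43.

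**Figure D1:**
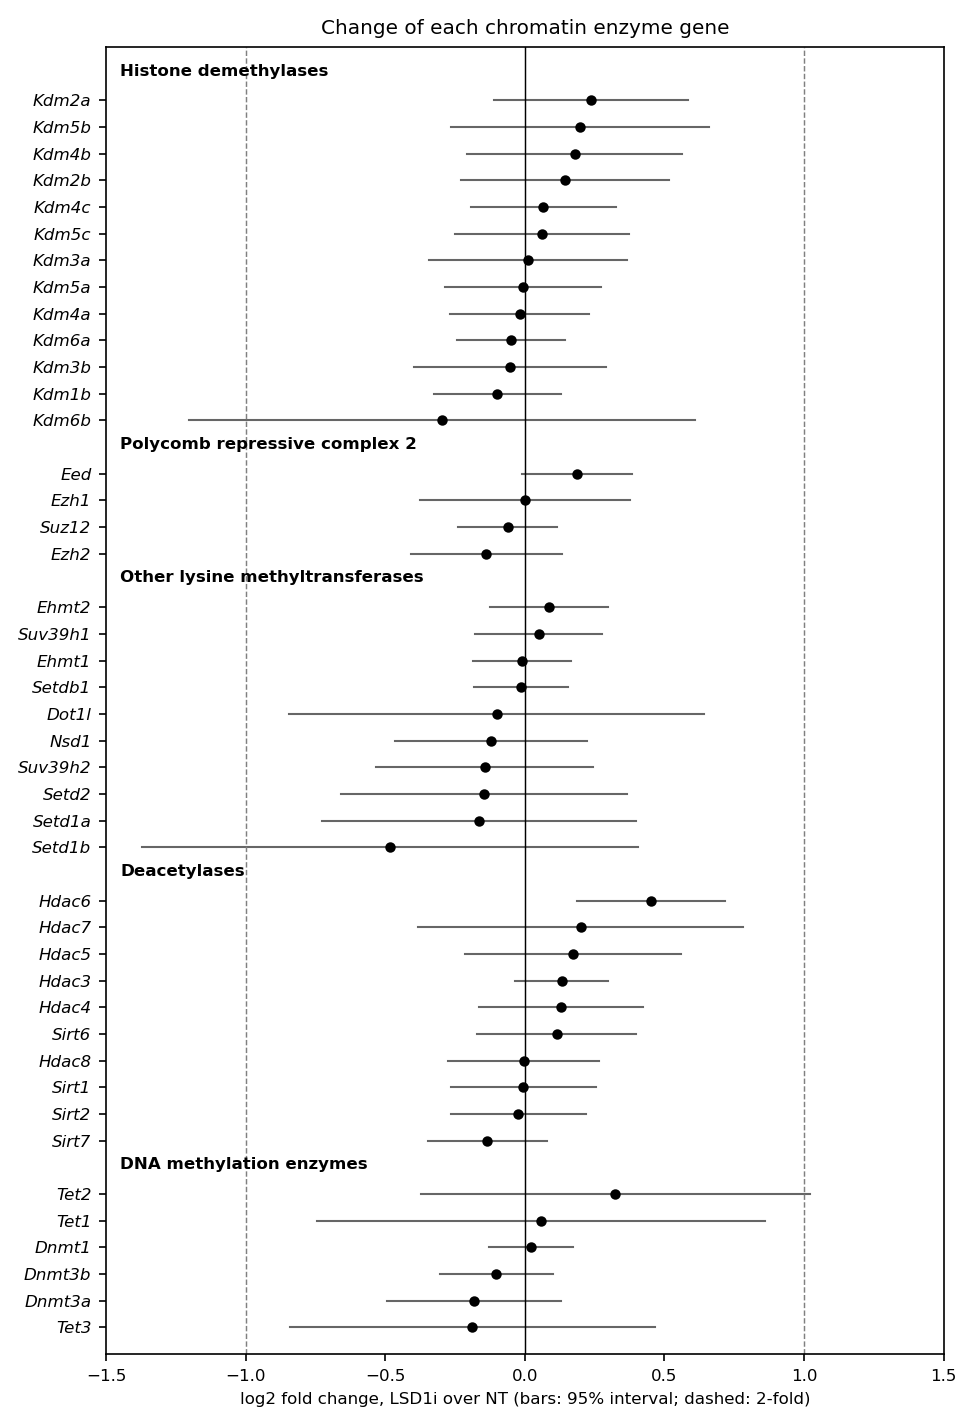
Log2 fold change of LSD1i over NT for each of the 43 genes, by role, from the batch-corrected counts. Points are estimates, bars their 95% intervals, the solid line marks no change and the dashed lines a 2-fold change in either direction. The interval of Hdac6 lies above 0, the others include 0, and those of Kdm6b, Setd1b and Tet2 cross a dashed line.

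Levels were compared between genes as CPM per kb of exon. On this scale the maintenance methyltransferase Dnmt1 stood at 67.3 ± 2.62 in LSD1i and 66.2 ± 2.32 in NT (SD, n = 4 and n = 5). Close to it were Ezh2 (60.5 ± 4.52 in LSD1i and 66.5 ± 11.4 in NT), Eed (61.5 ± 5.14 in LSD1i and 54.0 ± 4.87 in NT), Suz12 (56.8 ± 2.8 in LSD1i and 59.3 ± 4.77 in NT), Hdac7 (58.5 ± 19.4 in LSD1i and 50.9 ± 17.6 in NT), Hdac3 (54.0 ± 2.58 in LSD1i and 49.3 ± 3.38 in NT) and Ehmt2 (54.0 ± 3.98 in LSD1i and 50.8 ± 5.43 in NT). The libraries of Ezh2, Eed and Suz12 overlapped in both groups, so the order of these 3 is not resolved. At the low end were Tet1 (0.454 ± 0.125 in LSD1i and 0.43 ± 0.242 in NT) and Setd1b (0.686 ± 0.246 in LSD1i and 0.954 ± 0.568 in NT), and the other 41 genes were above 1 CPM per kb in both groups. Levels also differed within families. Ezh2 stood above Ezh1 (12.0 ± 2.58 in LSD1i and 12.0 ± 2.33 in NT), Suv39h1 (30.4 ± 3.16 in LSD1i and 29.4 ± 3.33 in NT) far above Suv39h2 (3.78 ± 0.702 in LSD1i and 4.18 ± 0.976 in NT), Ehmt2 above Ehmt1 (10.98 ± 0.0911 in LSD1i and 11.1 ± 0.931 in NT), and Dnmt3a (13.6 ± 1.84 in LSD1i and 15.4 ± 2.89 in NT) above Dnmt3b (3.66 ± 0.259 in LSD1i and 3.93 ± 0.279 in NT). Of the H3K27 demethylases Kdm6a (16.1 ± 1.54 in LSD1i and 16.7 ± 1.24 in NT) stood above Kdm6b (3.39 ± 1.77 in LSD1i and 4.16 ± 2.69 in NT).

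**Figure D2:**
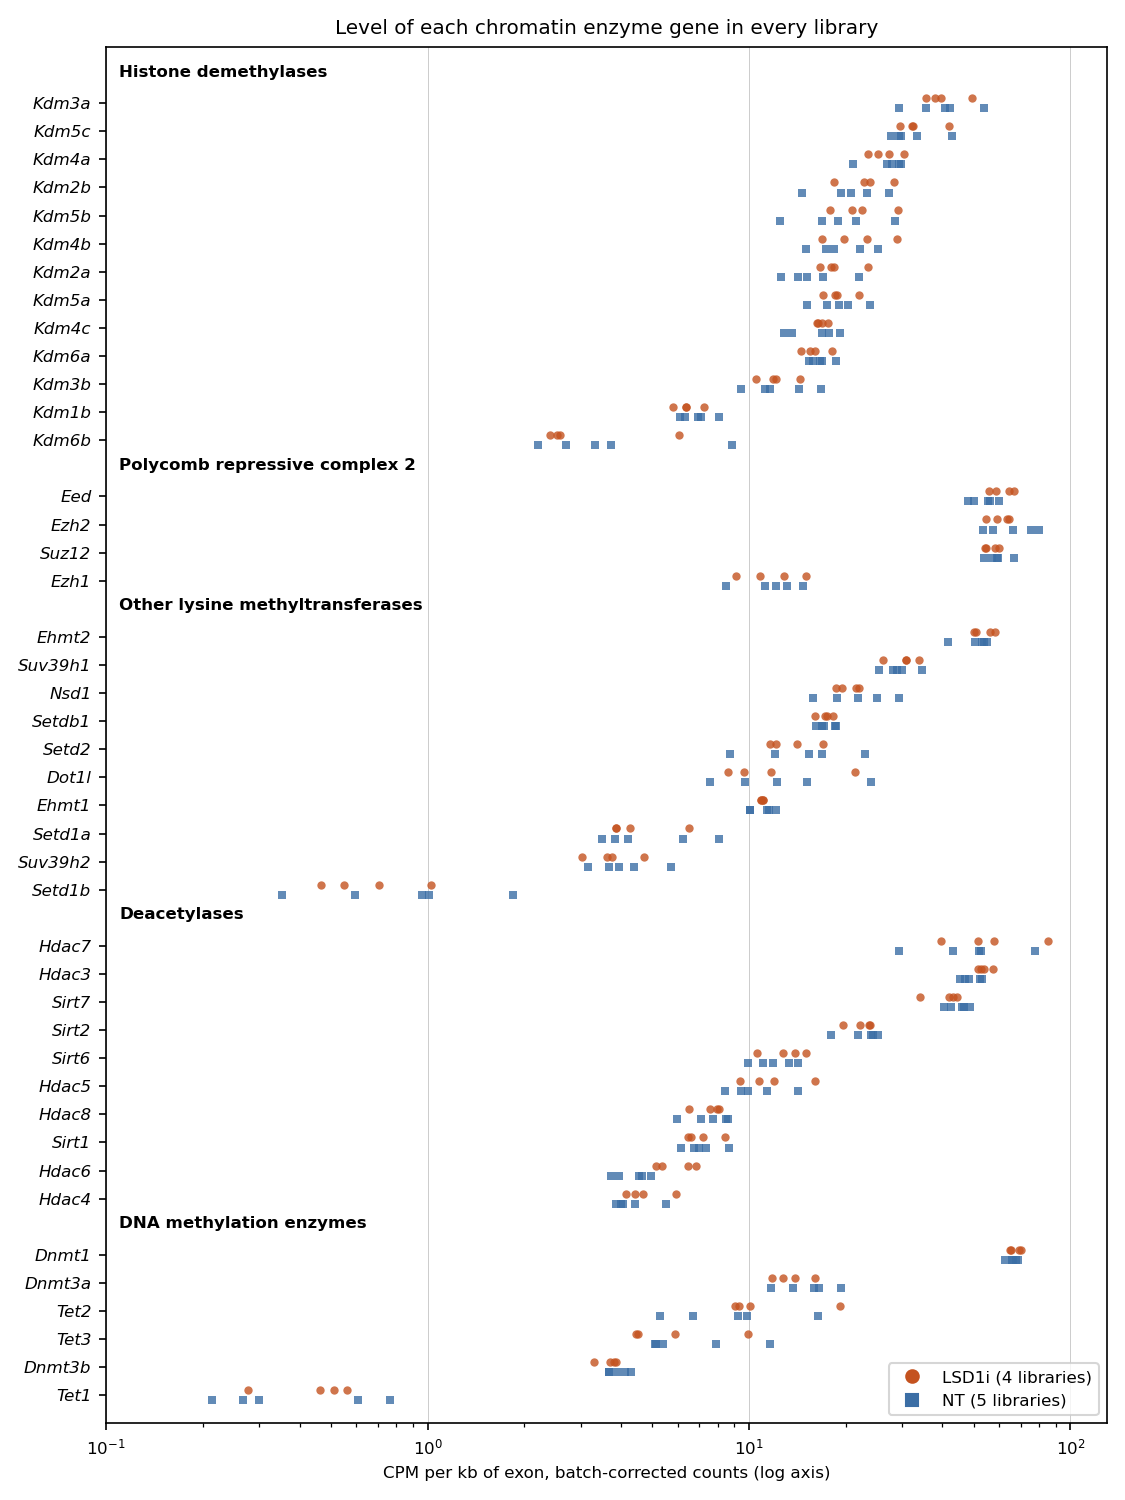
Level of each of the 43 genes in every library, as CPM per kb of exon from the batch-corrected counts on a log axis, by role and in falling order of the LSD1i mean. Circles are the 4 LSD1i libraries and squares the 5 NT libraries. The groups overlap for every gene but Hdac6, whose LSD1i libraries run from 21.2 to 28.4 CPM and NT libraries from 15.4 to 20.5 CPM, and Dnmt1 has the narrowest range.

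Among the histone demethylases 0 of 13 passed, 7 log2 fold changes were above 0 and 6 below, and their median was 0.01. Kdm1b, the paralog of the inhibited enzyme, had 31.7, 36.1, 28.9 and 31.8 CPM in LSD1i 1 to LSD1i 4, against 30.3, 35.3, 31.5, 34.7 and 40.2 CPM in NT 1 to NT 5. The groups overlapped, with NT 5 highest and LSD1i 3 lowest. Its log2 fold change was −0.10 ± 0.10 with a 95% interval of −0.33 to 0.13 (adjusted p = 0.76). Kdm2a, which binds unmethylated CpG islands and acts on H3K36, had 130.1, 120.3, 170.3 and 134 CPM in LSD1i 1 to LSD1i 4, against 159.8, 103, 109.8, 91.4 and 123 CPM in NT 1 to NT 5. LSD1i 3 was highest and NT 1 next, and NT 4 lowest. For Kdm2a the log2 fold change was 0.24 ± 0.16 (95% interval −0.11 to 0.58, adjusted p = 0.578).

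Kdm4b, of the family that acts on H3K9 and H3K36, had 107, 77.5, 133 and 90.3 CPM in LSD1i 1 to LSD1i 4, against 115, 84.2, 101, 79.3 and 69.0 CPM in NT 1 to NT 5. Kdm5b, of the H3K4 demethylase family, had 183, 156, 253 and 195 CPM in LSD1i 1 to LSD1i 4, against 249, 147, 188, 164 and 109 CPM in NT 1 to NT 5. In the batch-corrected counts of both genes LSD1i 3 and NT 1 were the highest library of their group and NT 5 the lowest of all 9. Their log2 fold changes were 0.18 ± 0.18 (interval −0.21 to 0.56, adjusted p = 0.739) and 0.20 ± 0.21 (interval −0.26 to 0.66, adjusted p = 0.764). All 4 genes had opposite signs in the 2 sets of libraries. The log2 fold change of Kdm1b was −0.20 within replicates 3 to 5 and 0.08 within replicates 1 and 2, that of Kdm2a 0.44 within replicates 3 to 5 and −0.22 within replicates 1 and 2, that of Kdm4b 0.38 within replicates 3 to 5 and −0.21 within replicates 1 and 2 and that of Kdm5b 0.48 within replicates 3 to 5 and −0.41 within replicates 1 and 2. The other H3K4 demethylases, Kdm5a and Kdm5c, were at −0.01 ± 0.13 and 0.06 ± 0.14, and the H3K9 demethylases Kdm3a and Kdm3b at 0.01 ± 0.16 and −0.05 ± 0.16. Kdm2b, Kdm4a, Kdm4c and Kdm6a lay between −0.05 and 0.14. Within replicates 3 to 5 these 8 genes ran from 0.07 to 0.38, and within replicates 1 and 2 from −0.46 to 0.02. The log2 fold changes of Kdm4b and Kdm5b, which did not pass, moved with single libraries. They were 0.03 and 0.06 without LSD1i 3 and 0.29 and 0.38 without NT 1.

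Kdm6b, an H3K27 demethylase induced on T cell activation, is singled out after its values were seen. It had 17.2, 16.0, 16.8 and 40.3 CPM in LSD1i 1 to LSD1i 4, against 59.0, 14.7, 24.8, 22.0 and 17.9 CPM in NT 1 to NT 5. In these batch-corrected values NT 1 and LSD1i 4 stood far above the other 7 libraries, which lay between 14.7 and 24.8 CPM. In raw reads NT 1, the library that the raw table names LSD1i 1, had 2787 of 29245278, and those 7 had 232 to 402. LSD1i 4 had 491 of 21852312, a share close to that of LSD1i 3, 370 of 17803528. LSD1i 4 therefore stood far above the 7 in the batch-corrected counts but not in raw reads. The log2 fold change was −0.30 ± 0.41, with a 95% interval of −1.20 to 0.61, and 0.29 within replicates 3 to 5 and −1.87 within replicates 1 and 2.

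In Polycomb repressive complex 2, which places H3K27 methylation, 0 of 4 passed, with 2 log2 fold changes above 0 and 2 below. Eed, the subunit that binds the mark and stimulates the enzyme, had 121, 138, 115 and 133 CPM in LSD1i 1 to LSD1i 4, against 103, 116, 99.5, 124 and 115 CPM in NT 1 to NT 5. Each LSD1i library was at 115 CPM or more, but NT 2 and NT 4 lay in the same range and NT 5 just under it. Its log2 fold change of 0.19 ± 0.09 (95% interval −0.01 to 0.39) did not pass (adjusted p = 0.379), and was 0.16 within replicates 3 to 5 and 0.29 within replicates 1 and 2. Ezh2, the catalytic subunit of dividing cells, had 153, 178, 181 and 165 CPM in LSD1i 1 to LSD1i 4, against 224, 161, 185, 212 and 149.7 CPM in NT 1 to NT 5. NT 1 and NT 4 were highest and NT 5 lowest, and the LSD1i libraries lay between. Ezh2 gave a log2 fold change of −0.14 ± 0.12 (interval −0.41 to 0.13, adjusted p = 0.71), and −0.07 within replicates 3 to 5 and −0.22 within replicates 1 and 2.

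Suz12, the scaffold subunit, had 237, 256, 262 and 239 CPM in LSD1i 1 to LSD1i 4, against 293, 236, 249.6, 258 and 260.5 CPM in NT 1 to NT 5. Apart from NT 1, which was highest, the libraries spanned 236 to 262 CPM. On the log2 scale the difference was −0.06 ± 0.08 (interval −0.24 to 0.11, adjusted p = 0.819), and −0.03 within replicates 3 to 5 and −0.11 within replicates 1 and 2. Ezh1, the catalytic subunit found mostly in resting cells, had 54.1, 38.3, 63.2 and 45.3 CPM in LSD1i 1 to LSD1i 4, against 61.9, 47.2, 51.1, 54.9 and 35.6 CPM in NT 1 to NT 5. LSD1i 3 and NT 1 were again the highest of their groups. The log2 fold change of Ezh1 was 0.00 ± 0.17 (interval −0.38 to 0.38, adjusted p = 0.999), and 0.21 within replicates 3 to 5 and −0.24 within replicates 1 and 2. For all 4 subunits the interval stayed inside a 1.5-fold change.

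Of the 10 other lysine methyltransferase genes, 0 passed, 2 log2 fold changes were above 0 and 8 below, and their median was −0.11. Setd1b, an H3K4 methyltransferase, had 4.86, 4.13, 6.26 and 9.07 CPM in LSD1i 1 to LSD1i 4, against 16.4, 5.27, 3.13, 8.93 and 8.54 CPM in NT 1 to NT 5. In these batch-corrected values NT 1 was highest, NT 3 was lowest, and the LSD1i libraries fell among the NT libraries. Raw reads lay closer together within replicates 3 to 5, at 95 and 130 in LSD1i 3 and LSD1i 4 and 99, 116 and 131 in NT 3 to NT 5. NT 1 had 738 raw reads of Setd1b. Its log2 fold change of −0.48 ± 0.41 had the widest interval of the 10 (−1.37 to 0.40, adjusted p = 0.688), and was 0.08 within replicates 3 to 5 and −1.87 within replicates 1 and 2. Without NT 1 it was −0.08, and without LSD1i 4 it was −0.75. Ehmt2, also called G9a, places H3K9 mono- and dimethylation and had 232, 207, 239.8 and 209.6 CPM in LSD1i 1 to LSD1i 4, against 207, 218, 227, 222 and 171 CPM in NT 1 to NT 5. NT 5 was the lowest library, and the other 8 lay between 207 and 239.8 CPM. For Ehmt2 the log2 fold change was 0.09 ± 0.10 (interval −0.12 to 0.30, adjusted p = 0.781), and 0.13 within replicates 3 to 5 and 0.04 within replicates 1 and 2.

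Suv39h2, which places H3K9 trimethylation, had 15.6, 20.4, 13.1 and 16.2 CPM in LSD1i 1 to LSD1i 4, against 13.6, 19.0, 15.9, 17.1 and 24.8 CPM in NT 1 to NT 5. NT 5 was highest and LSD1i 3 lowest. The estimated change was −0.14 ± 0.18 in log2 (interval −0.53 to 0.25, adjusted p = 0.808), and −0.35 within replicates 3 to 5 and 0.20 within replicates 1 and 2. Nsd1, an H3K36 dimethyltransferase, had 238, 249, 280.3 and 275 CPM in LSD1i 1 to LSD1i 4, against 375, 241, 279, 319.6 and 203 CPM in NT 1 to NT 5. The 4 LSD1i libraries lay inside the NT range, which ran from NT 5 to NT 1. Nsd1 gave a log2 fold change of −0.12 ± 0.16 (interval −0.46 to 0.22, adjusted p = 0.815), and 0.04 within replicates 3 to 5 and −0.44 within replicates 1 and 2. Among the other 6 genes of this role, the H3K9 enzymes Suv39h1 (0.05 ± 0.10), Ehmt1 (−0.01 ± 0.08) and Setdb1 (−0.01 ± 0.08) had narrow intervals inside a 1.5-fold change. Setd1a (−0.16 ± 0.26), the H3K36 methyltransferase Setd2 (−0.15 ± 0.23) and the H3K79 methyltransferase Dot1l (−0.10 ± 0.34) varied more between libraries. In the sets, Setd1a was 0.09 within replicates 3 to 5 and −0.77 within replicates 1 and 2, Setd2 was 0.15 within replicates 3 to 5 and −0.65 within replicates 1 and 2 and Dot1l was 0.29 within replicates 3 to 5 and −1.12 within replicates 1 and 2. Suv39h1 was −0.07 within replicates 3 to 5 and 0.25 within replicates 1 and 2, and Ehmt1 and Setdb1 lay between −0.05 and 0.02 in both sets.

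Among the deacetylases 0 of 10 passed, with 6 log2 fold changes above 0 and 4 below and a median of 0.12. Hdac6, a largely cytoplasmic enzyme that deacetylates tubulin, had 22.2, 28.4, 21.2 and 26.8 CPM in LSD1i 1 to LSD1i 4, against 16.4, 19.2, 18.9, 15.4 and 20.5 CPM in NT 1 to NT 5. In the batch-corrected counts it was the only 1 of the 43 genes whose groups did not overlap, LSD1i lying above NT. Of all tested genes 4.41% had LSD1i above NT in every library, 3.46% had it below and 7.86% did not overlap in either direction. In raw reads Hdac6 had 274 of 17803528 in LSD1i 3 and 363 of 21931812 in NT 5, a larger share in NT 5. Its log2 fold change of 0.45 ± 0.12 (95% interval 0.18 to 0.72) missed the threshold in edgeR (adjusted p = 0.0747) and passed in DESeq2 (0.0175). It was 0.39 within replicates 3 to 5 and 0.49 within replicates 1 and 2, and with raw counts and the library set as a term it was 0.44 (adjusted p = 0.184). Without NT 5 the edgeR call was made (adjusted p = 0.0488), and without each of the other 8 libraries it was not (0.0687 to 0.222). Under the raw names the log2 fold change was −0.06 (adjusted p = 0.999). The authors' deposited table gives Hdac6 a log2 fold change of 0.46 and an adjusted p of 0.0545, and marks it as not significant.

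Hdac3, the catalytic subunit of the NCoR and SMRT corepressors, had 105, 109.8, 107 and 117 CPM in LSD1i 1 to LSD1i 4, against 98.6, 108, 95.7, 91.8 and 107 CPM in NT 1 to NT 5. LSD1i 4 was highest, and LSD1i 1 and LSD1i 3 lay within the NT range. Its log2 fold change was 0.13 ± 0.08 (interval −0.04 to 0.30, adjusted p = 0.494), and 0.19 within replicates 3 to 5 and 0.05 within replicates 1 and 2. Sirt7, a nucleolar NAD-dependent deacetylase, had 74.3, 72.3, 58.7 and 76.9 CPM in LSD1i 1 to LSD1i 4, against 69.8, 79.7, 84.1, 73.2 and 80.7 CPM in NT 1 to NT 5. LSD1i 3 was lowest and NT 3 highest. The log2 fold change of Sirt7 was −0.13 ± 0.10 (interval −0.35 to 0.08, adjusted p = 0.62), and −0.20 within replicates 3 to 5 and 0.07 within replicates 1 and 2.

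Hdac5, a class IIa deacetylase that leaves the nucleus on phosphorylation, had 53.0, 41.4, 71.2 and 47.7 CPM in LSD1i 1 to LSD1i 4, against 62.8, 43.9, 50.4, 41.9 and 37.4 CPM in NT 1 to NT 5. In the batch-corrected counts LSD1i 3 and NT 1 were highest and NT 5 lowest. On the log2 scale the difference was 0.17 ± 0.18 (interval −0.22 to 0.56, adjusted p = 0.755), and 0.41 within replicates 3 to 5 and −0.27 within replicates 1 and 2. Without LSD1i 3 it was 0.01, and without NT 1 it was 0.30. The other class IIa genes, Hdac7 (0.20 ± 0.27) and Hdac4 (0.13 ± 0.13), had the same libraries highest and lowest in the batch-corrected counts. Hdac7, abundant in T cells, spanned 423 CPM in LSD1i 3 and 145 CPM in NT 5. On the log2 scale its difference was 0.53 within replicates 3 to 5 and −0.53 within replicates 1 and 2, and that of Hdac4 was 0.30 within replicates 3 to 5 and −0.20 within replicates 1 and 2. Hdac8 (−0.00 ± 0.12), Sirt1 (−0.01 ± 0.12), Sirt2 (−0.02 ± 0.11) and Sirt6 (0.11 ± 0.13) lay between −0.02 and 0.11, with −0.09 to 0.26 within replicates 3 to 5 and −0.24 to 0.15 within replicates 1 and 2.

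Among the 6 genes of DNA methylation and demethylation 0 passed, with 3 log2 fold changes above 0 and 3 below and a median of −0.04. Dnmt1, named after its values were seen, had 411, 434, 407 and 439.5 CPM in LSD1i 1 to LSD1i 4, against 414, 426, 416, 393 and 431 CPM in NT 1 to NT 5. Its highest library was 1.12 times its lowest, the smallest such ratio of the 43 genes, and its log2 fold change was 0.02 ± 0.07 (interval −0.13 to 0.17), with 0.04 within replicates 3 to 5 and 0.0017 within replicates 1 and 2. Dnmt3a, a de novo methyltransferase, had 137, 116, 159 and 127 CPM in LSD1i 1 to LSD1i 4, against 191, 136, 164, 158 and 116 CPM in NT 1 to NT 5. NT 1 was highest, and NT 5 and LSD1i 2 were lowest. For Dnmt3a the log2 fold change was −0.18 ± 0.14 (interval −0.49 to 0.13, adjusted p = 0.656), and −0.02 within replicates 3 to 5 and −0.37 within replicates 1 and 2. Dnmt3b, the other de novo enzyme, had 16.5, 15.9, 14.2 and 16.7 CPM in LSD1i 1 to LSD1i 4, against 15.9, 17.9, 15.9, 16.8 and 18.6 CPM in NT 1 to NT 5. Its libraries lay close together, LSD1i 3 being lowest, and its log2 fold change was −0.10 ± 0.09 (interval −0.30 to 0.10, adjusted p = 0.716), and −0.15 within replicates 3 to 5 and −0.07 within replicates 1 and 2.

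Tet2, a 5-methylcytosine oxidase, had 92.4, 83.4, 176 and 85.6 CPM in LSD1i 1 to LSD1i 4, against 151, 61.6, 90.6, 85.1 and 48.8 CPM in NT 1 to NT 5. In these batch-corrected values LSD1i 3 and NT 1 stood far above the rest, and the other 3 LSD1i libraries lay within the NT range. In raw reads LSD1i 3 and LSD1i 4 lay closer together, with 2630 of 17803528 and 2468 of 21852312. NT 3 to NT 5 had 1951, 1693 and 1592 raw reads of Tet2. The estimated change was 0.32 ± 0.32 in log2 (interval −0.37 to 1.02, adjusted p = 0.739), and 0.69 within replicates 3 to 5 and −0.61 within replicates 1 and 2. Without LSD1i 3 it was 0.0055, and without NT 1 it was 0.62. Tet3, of the same family, had 64.2, 49.2, 108 and 48.6 CPM in LSD1i 1 to LSD1i 4, against 127, 55.8, 58.7, 86.1 and 56.1 CPM in NT 1 to NT 5. NT 1 and LSD1i 3 were highest here too in the batch-corrected counts. In raw reads Tet3 had 1411, 1003, 1131 and 1191 in LSD1i 1 to LSD1i 4, so LSD1i 3 was not highest of its group. Tet3 gave a log2 fold change of −0.19 ± 0.30 (interval −0.84 to 0.46, adjusted p = 0.859), and 0.12 within replicates 3 to 5 and −1.004 within replicates 1 and 2. Tet1, the rarest of the 43 genes per kb, was at 0.06 ± 0.37, and 0.52 within replicates 3 to 5 and −0.91 within replicates 1 and 2.

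Spread between libraries differed widely among the genes. In the batch-corrected counts the ratio of the highest to the lowest library was above 2 for 10 of the 43 genes. It was largest for Setd1b (5.23), Kdm6b (4.01), Tet2 (3.62), Tet1 (3.58), Dot1l (3.17) and Hdac7 (2.92). It was under 1.3 for 6 genes, Dnmt1, Setdb1 (1.16), Ehmt1 (1.21), Suz12 (1.24), Hdac3 (1.27) and Kdm6a (1.28). NT 1 was the highest of the 9 libraries for 20 of the 43 genes and LSD1i 3 for 12. Among 9314 tested genes at least as abundant as the rarest of the 43, NT 1 was highest for 23.3% and LSD1i 3 for 12.9%. Of the 43 genes, 26 had both LSD1i 3 as the highest LSD1i library and NT 1 as the highest NT library, as did 22.8% of those 9314. NT 5 was the lowest library for 24 of the 43 and for 30.8% of the 9314.

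In the batch-corrected counts the spread went with transcript length. The 21 genes longer than the median of 5.003 kb of exon deviated from their own mean by a median of 0.31 on the log2 scale in LSD1i 3 and 0.44 in NT 1. The 22 shorter genes deviated by 0.04 and 0.03 in the same libraries. NT 5 had the lowest medians of the 9, −0.33 for the longer genes and −0.15 for the shorter. Across the 43 genes, which are not independent replicates, the deviation in NT 1 correlated with log2 length at r = 0.61, that in LSD1i 3 at 0.39 and that in NT 2 at −0.58. Across the 9314 genes the same correlations were 0.49, 0.28 and −0.37. With the G and C content of the transcript the correlations across the 43 genes ran from −0.39 to 0.21. NT 1 also differed from the other libraries in its content of the ribosomal RNA precursor Rn45s, which took 13.3% of its raw reads, against 1.66% to 2.87% in the others. In the batch-corrected counts these shares were 6.92% in NT 1 and 4.09% in LSD1i 3. NT 4 and NT 5 were close to LSD1i 3, at 3.98% and 3.70%, and the others were at 1.69% to 2.19%. LSD1i 3 thus did not stand apart in the batch-corrected counts, nor in raw reads, where its share was 1.96%. The parts of the ribosomal RNA content and of the batch correction in the levels of the long genes were not tested.

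**Figure D3:**
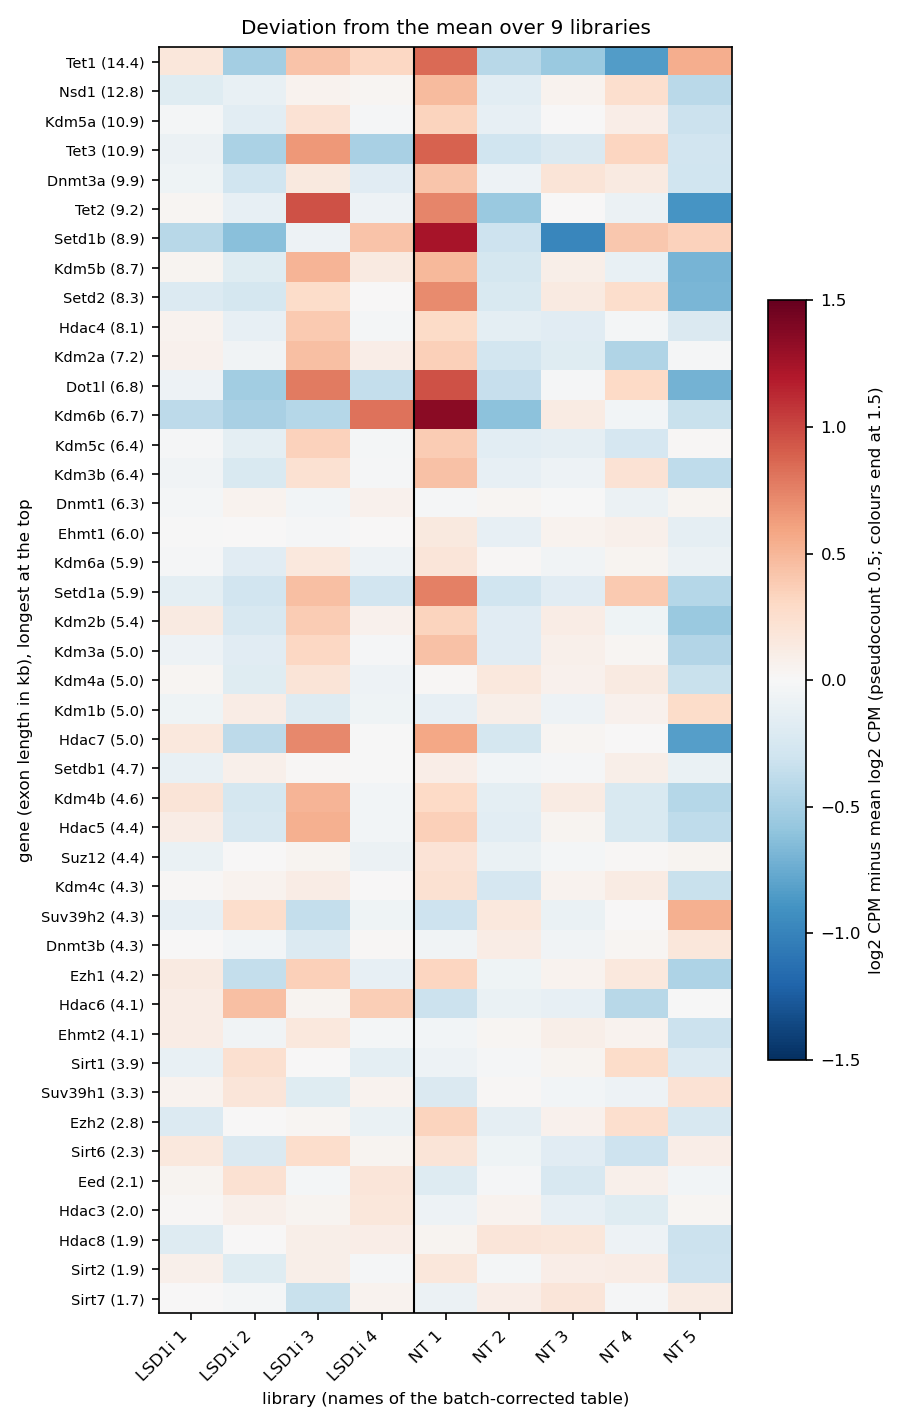
Deviation of each of the 43 genes in each library from its own mean over the 9 libraries, in log2 CPM of the batch-corrected counts, with the longest gene at the top. Columns are LSD1i 1 to LSD1i 4 and then NT 1 to NT 5, red is above the mean and blue below. The upper rows are red in LSD1i 3 and NT 1, where the 21 longer genes had median deviations of 0.31 and 0.44, and no block of rows separates the groups.

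The 2 sets of libraries often gave opposite signs. In raw counts within replicates 3 to 5, which both tables name alike, 33 of the 43 log2 fold changes were above 0 and 10 below, with a median of 0.14. Within replicates 1 and 2, 11 were above 0 and 32 below, with a median of −0.21. The medians of all genes tested in these sets were −0.0042 and −0.0058. Opposite signs in the 2 sets were seen for 32 of the 43 genes (74.4%), and for 50.3% of all 11688 genes tested in both and 52.5% of the 9314 at least as abundant as the rarest of the 43. The 43 genes move together in single libraries, as described above, so they are not 43 independent observations. Within replicates 3 to 5, 9 of the 43 genes had an unadjusted p under 0.05, against 13.8% of all genes tested there, and 0 passed after adjustment (0.969% of all genes did). Within replicates 1 and 2 there were 2 at an unadjusted p under 0.05, against 5.04% of all, and 0 after adjustment (0.0676% of all genes passed). Tested directly, the difference of the treatment effect between the sets passed for 0 of the 43 genes in edgeR and for 0% of all tested genes. At an unadjusted p under 0.05 it did so for 5 of the 43, namely Setd1b, Kdm6b, Kdm5b, Dot1l and Tet2, against 4.88% of all. Without NT 1, 32 of the 43 log2 fold changes in the batch-corrected counts were above 0, with a median of 0.08, and still 0 passed. The median over all tested genes in that fit was −0.0038. Hdac6, Eed, Hdac3, Ehmt2, Kdm4c and Dnmt1 were above 0 in both sets, and Ezh2, Suz12, Dnmt3a, Dnmt3b and Ehmt1 below 0 in both, without passing in either.

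**Figure D4:**
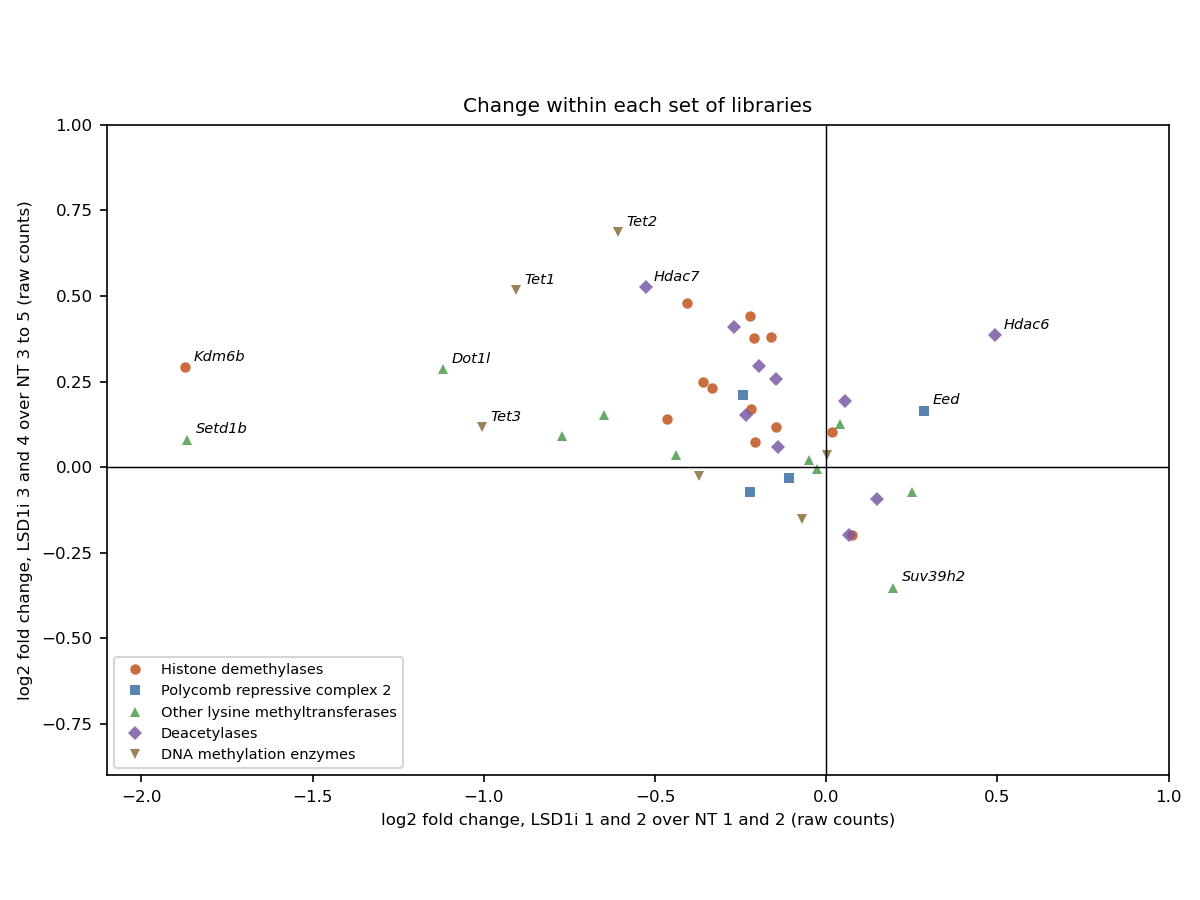
Log2 fold change of LSD1i over NT in raw counts for the 43 genes, within replicates 3 to 5 on the vertical axis and within replicates 1 and 2 on the horizontal axis, under the names of the batch-corrected table. Each point is 1 gene, with shape and colour giving its role. Most points lie in the upper left part of the plot, positive in one set and negative in the other, and Hdac6 lies at 0.39 and 0.49.

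By position, 5 of the 43 genes lie on the X chromosome, Hdac6, Hdac8, Suv39h1, Kdm5c and Kdm6a. Apart from Hdac6 their log2 fold changes ran from −0.05 to 0.06. The Y-linked relatives of Kdm5c and Kdm6a, Kdm5d and Uty, had 0 counts in every library, which allows up to 0.103 CPM in the deepest library and 0.198 CPM in the shallowest.

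The other chromatin modifiers of the same pathways gave the same count. Of 77 further enzymes and partners, 73 were tested, comprising other methyltransferases and demethylases, acetyltransferases, remaining deacetylases, arginine methyltransferases, accessory subunits of Polycomb repressive complex 2 and partners of DNA methylation. Of these 0 rose and 0 fell at an adjusted p under 0.05, where 3.31% of all genes passed. At an unadjusted p under 0.05, 2 were higher and 7 lower, against 14.6% of all genes. DESeq2 called 1 of the 73, Mbd2. Their median log2 fold change was −0.05, with 28 above 0 and 45 below.

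The 3 with the smallest p-values were Mbd2, Prmt3 and Jmjd6. Mbd2, which binds methylated CpG sites, had 144, 166, 160.2 and 131 CPM in LSD1i 1 to LSD1i 4, against 112, 123, 128, 111 and 130.025 CPM in NT 1 to NT 5. LSD1i lay above NT in every library, LSD1i 4 and NT 5 being close. Its log2 fold change was 0.31 ± 0.09 (interval 0.11 to 0.51, adjusted p = 0.0994 in edgeR and 0.0333 in DESeq2), and 0.26 within replicates 3 to 5 and 0.49 within replicates 1 and 2. Prmt3, an arginine methyltransferase of ribosomal protein, had 48.6, 60.4, 41.4 and 47.4 CPM in LSD1i 1 to LSD1i 4, against 56.5, 61.6, 63.3, 83.2 and 67.4 CPM in NT 1 to NT 5. LSD1i 2 overlapped the NT range, and the log2 fold change was −0.42 ± 0.13 (interval −0.72 to −0.13, adjusted p = 0.132), and −0.60 within replicates 3 to 5 and 0.02 within replicates 1 and 2. Jmjd6, a Jumonji oxygenase that hydroxylates lysines, had 185, 184, 211 and 220.5 CPM in LSD1i 1 to LSD1i 4, against 194, 156, 162, 141 and 151 CPM in NT 1 to NT 5. NT 1 lay among the LSD1i libraries, and the log2 fold change was 0.32 ± 0.10 (interval 0.09 to 0.54, adjusted p = 0.153), and 0.55 within replicates 3 to 5 and 0.11 within replicates 1 and 2. Without NT 1 it passed (0.40, adjusted p = 0.0338). Because RNA was taken from bulk cultures, fewer cells expressing a gene and less of its RNA per cell cannot be told apart in any of these values.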

How the data were processed

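The authors deposited 3 tables. Per the submitters' processing notes, reads were processed with STAR, featureCounts and edgeR on mm9. The sources used here do not state versions or strand use, so reads of overlapping or antisense genes may be mixed. The deposited raw counts are whole numbers per gene. The second table holds batch-corrected estimated counts deposited by the authors, whose correction method is not stated, rounded to whole numbers here. From the comparison table that the authors deposited, only the log2 fold change and adjusted p-value of Hdac6 are printed, its test score not being used.

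Samples were read from column names. Libraries were matched between the count tables by genes with 0 counts, 0 genes differing for each match and 1336 or more for the next best. The labels give no batch. The log2 of the ratio between each corrected and raw count (pseudocount 0.5, 9618 genes with a mean of at least 100) correlated at 0.75 to 0.98 within replicates 1 and 2 and within replicates 3 to 5, and at −0.96 to −0.79 between these sets. Replicates of a group all differed by more than counting noise (lowest chi-square per degree of freedom 7.10).

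The test was edgeR's quasi-likelihood test (version 4.0.16, R 4.3.3), with group as the only term, TMM scaling, a minimum count of 10 and total of 15, and Benjamini-Hochberg adjustment over all tested genes at 0.05. The authors' batch correction uses up degrees of freedom that this test does not count. Adjusted p-values are from this test unless DESeq2 1.42.0 is named, and all tests are two-sided. Errors of fold changes are standard errors, intervals are 95% intervals of the unshrunk coefficient, and errors of CPM (counts over the TMM-scaled library size) are standard deviations over 4 LSD1i or 5 NT libraries. Exon length is the union of exons of RefSeq-linked GENCODE M21 transcripts on GRCm38, which is not the authors' build, and chromosomes come from the same annotation. The scripts were tested on simulated data. Alternatives were another scaling, DESeq2, no filter, the raw table under either set of names, a batch term, a replicate block, each set of libraries alone and each library left out. The set by treatment term was added after the data were seen. The genes and lists were chosen with earlier results of these data known. Every library value is given for the 4 genes of each role with the smallest p-values, and for the 3 such genes of the other chromatin modifiers.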

Additional observations from a re-analysis of the deposited data

Results flagged for a closer look

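The 43 genes in LSD1i and in NT formed 86 groups of batch-corrected values. Of these, 4 held a library that lay apart from the rest of its group by Dixon's criterion. Chance alone meets this criterion in about 1 of 20 groups. Kdm6b was at 40.3 CPM in LSD1i 4, with 16.0 to 17.2 CPM in the other LSD1i libraries, and at 59.0 CPM in NT 1, with 14.7 to 24.8 CPM in the other NT libraries. Tet2 was at 176 CPM in LSD1i 3, with 83.4 to 92.4 CPM in the other LSD1i libraries. Setd1a was at 38.6 CPM in LSD1i 3, with 22.8 to 25.3 CPM in the other LSD1i libraries. Raw reads, on which this criterion was not run, differed. In LSD1i 1 to LSD1i 4 Setd1a had 671, 615, 394 and 406 raw reads, so LSD1i 3 was not highest. In LSD1i 3 and LSD1i 4, of 17803528 and 21852312 raw reads, Kdm6b had 370 and 491 and Tet2 had 2630 and 2468. Raw reads still hold the difference between the library sets.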

How the results depend on the processing

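The count of 0 called among the 43 genes held under every alternative except DESeq2 and the fit without NT 5, each of which called 1, Hdac6 (leave-one-out range 0 to 1). Among the other chromatin modifiers 1 was called in DESeq2 (Mbd2), 1 within replicates 3 to 5 (Jarid2) and 0 to 1 on leaving out a library. Over all genes 397 were called, against 667 in DESeq2, 220 in raw counts with the batch term, 117 within replicates 3 to 5, 8 within replicates 1 and 2, 0 under the raw names (172 at an unadjusted p under 0.05) and 219 to 432 on leaving out a library, 219, 228 and 251 without LSD1i 4, LSD1i 1 and LSD1i 3.

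Deviations of same-numbered libraries from their group means correlated at −0.34 to 0.37 in the batch-corrected counts that were tested, and at 0.53 to 0.78 in raw counts under the same names, which still hold the difference between the library sets. In the batch-corrected counts 2 of the 4 pairs were below 0, so the group-only fit was kept. The replicate block called 326 genes there and 352 in raw counts, and 0 of the 43 in both.

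Signs are given here for the genes with every library printed, Kdm6b and Dnmt1 apart. Under the raw names the sign turned for Eed (−0.0571), Ezh2 (0.0041), Setd1b (1.09), Nsd1 (0.16), Hdac6 (−0.0610), Dnmt3a (0.22), Dnmt3b (0.0698), Tet3 (0.63), Mbd2 (−0.0920) and Kdm1a (0.0485). Within replicates 1 and 2 it turned for 17 of the 43 genes, and among those printed for Kdm2a (−0.22), Kdm4b (−0.21), Kdm1b (0.0765), Kdm5b (−0.41), Ezh1 (−0.24), Suv39h2 (0.20), Sirt7 (0.0663), Hdac5 (−0.27), Tet2 (−0.61) and Prmt3 (0.0179), and within replicates 3 to 5 for 15 of the 43, and among those printed for Setd1b (0.0800), Nsd1 (0.0352) and Tet3 (0.12). With the replicate block it turned for Ezh1 (−0.12 in batch-corrected and −0.11 in raw counts) and Suv39h2 (0.0219 in raw counts). On leaving out a library the range spanned 0 for Ezh1 (−0.12 to 0.12), Suv39h2 (−0.26 to 0.0052), Nsd1 (−0.22 to 0.0043) and Tet3 (−0.50 to 0.0761). None of these genes passed before or after the change of sign, and the cause was not tested. The call of Gfi1 was lost under the raw names (0.09) and within replicates 1 and 2 (1.24, adjusted p = 0.143).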
